A study of Mus musculus with 7 samples.

Results

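The genes described here are the protein-coding mouse genes that encode translation initiation factors (symbols beginning Eif1 to Eif6) and elongation factors (symbols beginning Eef1 or Eef2). They are defined by symbol, with no measured value in the rule, after Ensembl identifiers in a table of raw gene counts had been matched to the GENCODE M21 annotation. The rule found 68 genes among the 54532 of the table, and 65 of them had enough counts to be tested. RNA sequencing had been run on 7 libraries of PanMeso cells, a mouse mesothelial line made from pancreas that carries enhanced green fluorescent protein (eGFP). Parental cells (3 libraries) were kept in culture. BMFA3 cells (2 libraries) and CT1BA5 cells (2 libraries) were eGFP-positive PanMeso cells recovered by flow sorting from orthotopic tumours, grown from a mixed injection of the line with either BMFA3 or CT1BA5 pancreatic cancer cells. All groups thus carry eGFP and come from the same line. Per the labels, the line was grown at 33 °C and moved to 37 °C 3 days before use, in serum-containing medium whose additives were insulin (870 nM), hydrocortisone (400 nM) and mouse epidermal growth factor (3.3 nM). The labels do not say whether libraries of a group came from separate cultures or tumours, so p-values measure only the spread between these libraries, which may be technical. Sorted cells also differ from parental cells by residence in an animal, dissociation and sorting, and these cannot be told apart from the tumour itself.

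Protein synthesis starts when the cap-binding complex eIF4F (eIF4E, the helicase eIF4A and the scaffold eIF4G) draws an mRNA to a small ribosomal subunit that carries eIF3, eIF1, eIF1A, eIF5 and eIF2 with the initiator tRNA. After the start codon is found, eIF5B joins the large subunit, and eEF1A then brings each aminoacyl-tRNA while eEF2 moves the ribosome along. Supply is controlled at several steps. The 4E-BP proteins hold eIF4E, kinases that phosphorylate eIF2 turn it into an inhibitor of its exchange factor eIF2B, and eEF2 kinase inactivates eEF2. These are activities of proteins, and only RNA levels were measured here.

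Many genes of the translation machinery carry the letters CACGTG, an E-box that MYC and related factors can bind, or a run of pyrimidines at the start of transcription. RefSeq promoters (GRCm38.p6, 250 bases before to 50 after each gene's start) were matched by symbol for 52 of the 68 genes. The windows below run from 70 bases before to 30 after the RefSeq start. They belong to genes described below: Eef2, Eif3f and Eif3k, which were higher in sorted cells, and Eif3a, Eif4g1 and Eif2ak2, which were lower. Each printed window holds at least 1 searched motif, so these genes do not show how often motifs go with the changes. Capitals mark CACGTG, a run of 8 or more C or T that starts with C, or, in Eif2ak2, GAAA, any 2 bases and GAAA again, the letters of interferon-responsive elements. Each is printed 5′ to 3′ on the strand of its gene. The Eef2 window is chr10:81176561-81176660 on the plus strand, and the Eif3f window is chr7:108934345-108934444 on the plus strand. The Eif3k window is chr7:28981859-28981958 on the minus strand, and the Eif3a window is chr19:60790664-60790763 on the minus strand. The Eif4g1 window is chr16:20672657-20672756 on the plus strand, and the Eif2ak2 window is chr17:78882543-78882642 on the minus strand.
Eef2: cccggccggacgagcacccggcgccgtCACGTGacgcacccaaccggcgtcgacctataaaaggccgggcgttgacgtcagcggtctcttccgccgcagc
Eif3f: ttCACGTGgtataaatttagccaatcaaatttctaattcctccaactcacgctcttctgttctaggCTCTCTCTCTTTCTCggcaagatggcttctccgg
Eif3k: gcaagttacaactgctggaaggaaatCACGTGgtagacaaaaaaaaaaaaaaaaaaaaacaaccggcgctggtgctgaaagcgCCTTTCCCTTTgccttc
Eif3a: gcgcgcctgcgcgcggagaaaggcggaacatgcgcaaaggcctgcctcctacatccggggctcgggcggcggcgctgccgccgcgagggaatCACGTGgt
Eif4g1: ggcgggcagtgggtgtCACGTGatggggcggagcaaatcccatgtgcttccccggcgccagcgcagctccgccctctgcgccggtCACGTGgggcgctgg
Eif2ak2: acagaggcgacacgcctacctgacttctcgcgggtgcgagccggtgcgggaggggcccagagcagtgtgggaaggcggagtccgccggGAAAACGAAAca

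CACGTG, which reads the same on both strands, was present in 13 of the 52 matched promoters (25%), against 8.09% of 27025 genes in the table of promoters and 11.6% of the 10231 tested genes with an entry. Its first base lay at position -43 in Eef2, -68 in Eif3f, -44 in Eif3k and -54 in Eif4g1, counted from the RefSeq start. Eif4g1 held a second match after the start, and the match in Eif3a also lay after the start. The letters were in 8 of the 29 matched genes called higher in sorted cells, 3 of the 11 called lower and 2 of the 11 not called. The pyrimidine run, searched on the gene's own strand from 25 bases before to 35 after the start, was present in 14 of the 52 (26.9%), against 19.8% of all genes and 21.1% of tested genes. It was in 9 of the 29 higher genes and 2 of the 11 lower genes. Eef1a1 is counted among the 14 and the 9, but its RefSeq start lies before the letters TATATAA, so the run may not be at the start used, and its window is not printed. The spaced pair of GAAA, searched on both strands, was found in 4 of the 52 (7.69%), namely Eif2ak2, Eif2s1, Eif2s3x and Eif3a. The pair was in 3.99% of all genes and 3.84% of tested genes. TGATGNAA, the core of elements bound by ATF4 with C/EBP proteins, was found on either strand in Eef2k and Eif2s3x. That is 2 of the 52 (3.85%), against 4.51% of all genes and 2.72% of tested genes. Eef2k, Eif3f, Eif3k and Eif4e held both CACGTG and a pyrimidine run, and the promoter of Eif2s3x held both other motifs and a run. Starts are those of RefSeq and were not measured in these cells, and a match describes letters, not binding.

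Libraries held 10096839 to 19210598 counts. All 10 mesothelial markers were detected, but their summed level was 12100 to 13300 CPM (counts scaled to a common library size, after TMM scaling) in parental cells, led by mesothelin (Msln). It was 2740 and 2750 CPM in the BMFA3 libraries, and 1740 and 1820 in those of CT1BA5. Markers of blood cells were low. Of 8 lymphocyte markers, 7 were at 0 in every library, with Ptprc (CD45) among them, and C1qa, C1qb and Itgam of 10 macrophage markers were at 0. Macrophage markers summed to between 23.8 and 31.4 CPM in parental, 36.5 and 39.3 in BMFA3, and 30.3 and 30.9 in CT1BA5 cells. Neutrophil markers, 3 of 6 of them at 0 everywhere, summed to between 0.092 and 0.245 CPM in parental, 5.17 and 6.76 in BMFA3, and 1.42 and 2.26 in CT1BA5 cells, mostly as S100a8. Acinar markers, 3 of 6 at 0 everywhere, summed to between 0.736 and 1.2 CPM in parental, 2.85 and 4.14 in BMFA3, and 3.49 and 5.76 in CT1BA5 cells. Endothelial markers summed to 97.5 to 108, 27.5 to 28.8 and 21.3 to 25 CPM in the same order, mostly Kdr. Tumour epithelial markers summed to 60.5 to 77.5, 14.6 to 17.8 and 12.4 to 14.8 CPM, with Epcam at most 0.389. Both sums were lower in sorted cells, but single markers differed. Of 2 tested endothelial markers, 1 was called higher and 1 lower in sorted cells. Of 4 tested tumour epithelial markers, 0 were called higher and 2 lower in sorted cells. In BMFA3 and in CT1BA5 cells, each against parental, 1 was higher and 2 were lower. Erythroid markers, 4 of 6 at 0 everywhere, stayed at or below 1.38 CPM, and markers of muscle and neurons (1 of 9 at 0 everywhere) summed to between 6.26 and 8.59 CPM in parental, 6.16 and 6.46 in BMFA3, and 21.7 and 22.4 in CT1BA5 cells. The part of these cells in the results below was not tested. In bulk RNA a lower share of a cell type and less RNA per cell cannot be told apart.

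Translation factor transcripts took a larger share of the RNA in cells from tumours than in cultured cells. The 68 genes took 2.62%, 2.47% and 2.41% of all counts in the parental libraries, 3.11% and 3.23% in BMFA3, and 3.45% and 3.63% in CT1BA5. The groups did not overlap, and each CT1BA5 library was above each BMFA3 library. Elongation factors made up most of this difference. Their share was 1.32% to 1.47% in parental, 2.02% and 2.11% in BMFA3, and 2.31% and 2.44% in CT1BA5 libraries. Initiation factors took 1.09% to 1.14%, then 1.09% and 1.12%, then 1.15% and 1.19%, so that parental and BMFA3 libraries overlapped. Eef1a1, which encodes the main eEF1A, had more counts than any other gene in all 7 libraries and held 37.8% to 49.2% of the counts of the set. Without it the set took 1.5% to 1.57% in parental, 1.63% and 1.68% in BMFA3, and 1.78% and 1.85% in CT1BA5 libraries. Cytosolic ribosomal protein genes, which are no part of the set, moved in the same order, from 4.37% to 5.04% in parental to 8.55% and 9.86% in CT1BA5 libraries. The share of genes encoded in mitochondria was 0.416% to 0.466% in parental and 0.789% to 1.04% in sorted libraries. The part of these shifts in the results was not tested.

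**Figure D1:**
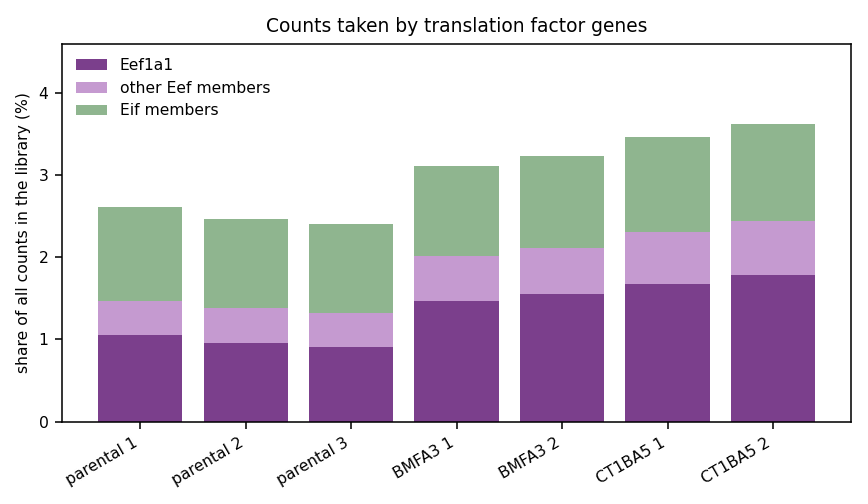
Share of all counts in each library (%, vertical axis) taken by Eef1a1, by the other Eef genes and by the Eif genes, stacked; each bar is 1 library. The stacks reach 2.41 to 2.62% in parental, 3.11 and 3.23% in BMFA3, and 3.45 and 3.63% in CT1BA5 libraries, and most of the difference lies in the Eef1a1 segment.

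The question set by the design was how cells taken from tumours differ from their cultured parents, and whether the tumour line matters. When the BMFA3 and CT1BA5 means were averaged and set against parental cells, 39 members rose, 12 fell and 14 were not called (edgeR quasi-likelihood test, adjusted p under 0.05 over all 13784 genes tested). That is 78.5% of the tested members called, against 69.6% of all tested genes; for the higher direction alone it is 60% of members against 34.8%, and for the lower direction 18.5% against 34.8%. The median log2 fold change was 0.28 over the members and 0.01 over all tested genes. The groups did not overlap for 38 members, against 55.9% of all tested genes. A 2-fold difference was passed by 2 members in this comparison (25.4% of all tested genes), by 2 in BMFA3 (22.1%) and by 10 in CT1BA5 against parental cells (31.8%). Against parental cells, BMFA3 cells had 25 members higher and 13 lower (58.5% called, against 59% of all genes; 38.5% higher, against 29.2%; 20% lower, against 29.9%), with a median of 0.05 on the log2 scale. CT1BA5 cells had 40 higher and 10 lower (76.9% called, against 70.7% of all genes; 61.5% higher, against 35.5%; 15.4% lower, against 35.1%), with a median of 0.44. The libraries did not overlap parental ones for 52 members in BMFA3 (background 73.8%) and for 52 in CT1BA5 (background 78.4%). All 3 comparisons share the same parental libraries. The share of members called in BMFA3 cells was thus at the level of the background. The medians of all genes were 0.01 for BMFA3 and 0 for CT1BA5. Scaling by library size alone, with no TMM, put the median of all genes at -0.149 in sorted cells, -0.071 in BMFA3 and -0.234 in CT1BA5, and that of the members at 0.121, -0.023 and 0.207. It gave 30 higher and 18 lower members in sorted, 20 and 17 in BMFA3, and 34 and 19 in CT1BA5 cells. Of all 13784 tested genes it called 3600 higher and 5964 lower in sorted cells. Those counts were 3444 and 4672 in BMFA3, and 3495 and 6280 in CT1BA5 cells.

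**Figure D2:**
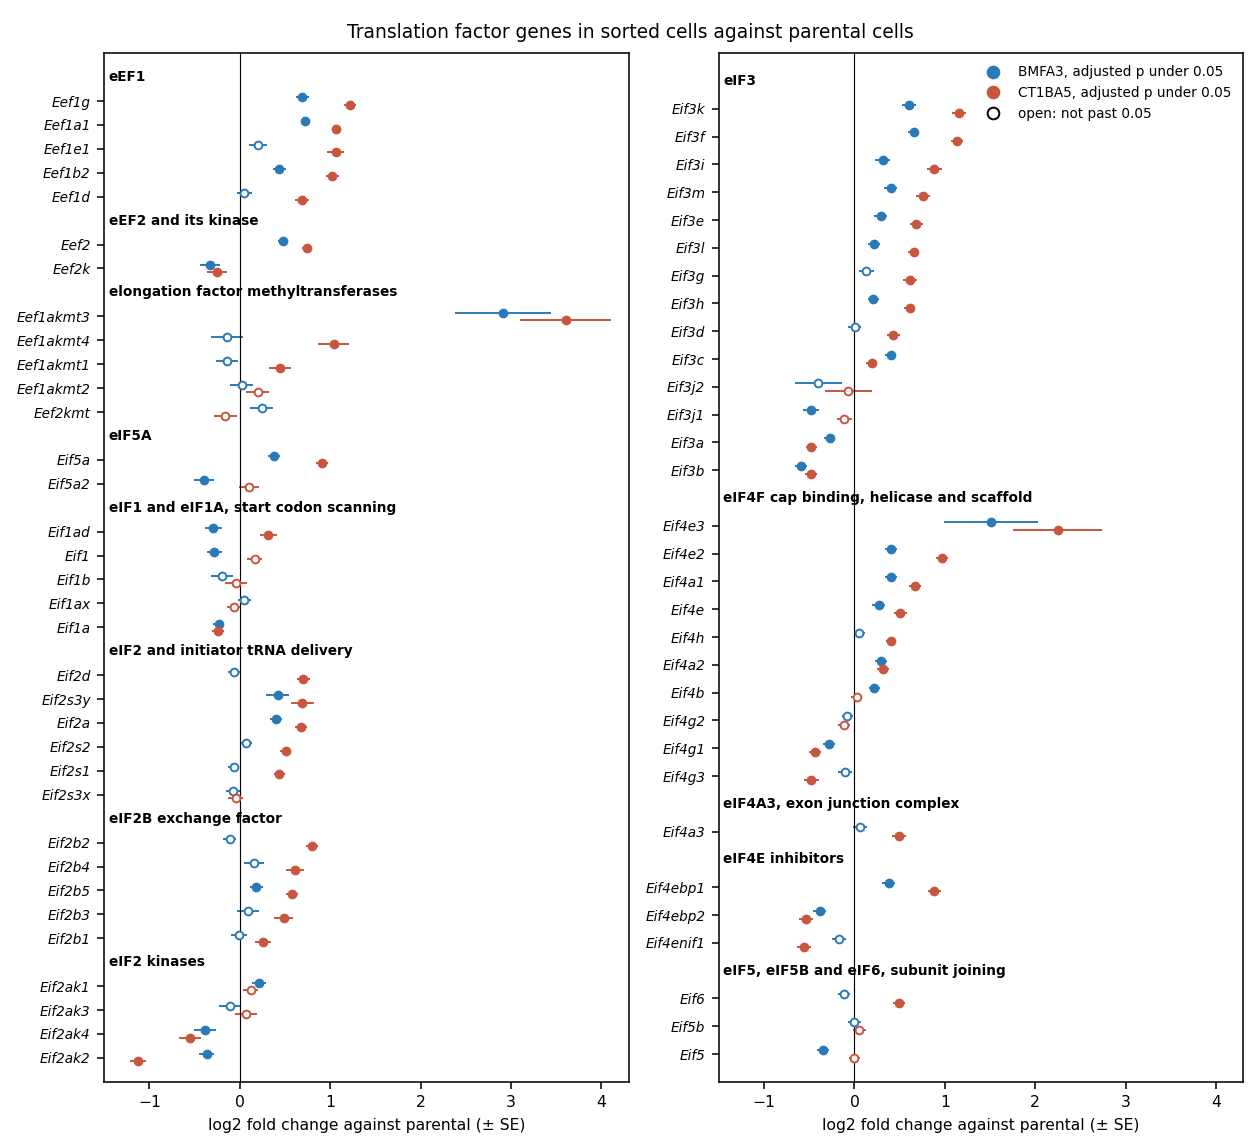
Log2 fold change against parental cells (horizontal axis, ± SE) for every tested member, grouped by role; blue is BMFA3 and red is CT1BA5, filled where the adjusted p was under 0.05. The eEF1 group lies right of 0 in both, whereas Eif2ak2, Eif2ak4, Eif3a, Eif3b, Eif4g1 and Eif4ebp2 lie left of 0 in both.

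All 5 tested genes of eEF1 rose in sorted cells, which is 100% against 34.8% of all tested genes. The median log2 fold change was 0.73, and all 5 also rose under library size scaling alone. Eef1a1 (chr9:78478449-78489151, GRCm38), whose product carries aminoacyl-tRNA to the ribosome, stood at 9733, 9097 and 8595 CPM in parental, 14820 and 15200 in BMFA3, and 18410 and 19930 in CT1BA5 libraries. Every sorted library was above every parental library, and CT1BA5 was above BMFA3. The log2 fold change was 0.89 ± 0.038 (SE; adjusted p = 6.08e-14). Per kilobase of merged exon, Eef1a1 was at 3667 CPM in parental and 7690 in CT1BA5 cells, and Eef2 at 753 and 1257. Eef1g, a subunit of the eEF1B exchange complex that recharges eEF1A with GTP, had 568, 568 and 525 CPM in parental, 897 and 890 in BMFA3, and 1209 and 1370 in CT1BA5 libraries, a log2 difference of 0.95 ± 0.060. The groups were separate and in the same order. Eef1b2, the subunit with exchange activity, was at 636, 596 and 587 CPM in parental, 816 and 823 in BMFA3, and 1132 and 1333 in CT1BA5 libraries, a log2 difference of 0.73 ± 0.062. Its groups did not overlap. Eef1d, a further exchange subunit, and Eef1e1, a partner of the aminoacyl-tRNA synthetase complex, did not pass in BMFA3 (0.05 and 0.20 on the log2 scale, adjusted p = 0.611 and 0.0937). Both rose in CT1BA5, by 0.69 and 1.06 (adjusted p = 2.32e-07 and 6.74e-09). Eef1b2 overlaps Ndufs1 on the opposite strand over 9 bases, and Eef1d overlaps Naprt over 277 bases on the same strand, so their counts may share reads.

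Eef1a2, the eEF1A form of muscle, heart and neurons, was almost absent. Its highest count in any library was 6, and it was at 0 in BMFA3 2 and CT1BA5 1, where a count of 0 allows up to 0.199 and 0.194 CPM (3 counts, counting error only). It was not tested, and no fold is given.

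Eef2 (chr10:81176631-81182498), the translocase, rose while its inhibitory kinase Eef2k fell. Eef2 had 2476, 2570 and 2463 CPM in parental, 3457 and 3489 in BMFA3, and 4189 and 4164 in CT1BA5 libraries, a log2 fold change of 0.61 ± 0.041 (adjusted p = 8.02e-11). Every sorted library lay above the parental ones. Eef2k had 22.4, 22.6 and 23.1 CPM in parental, 19.1 and 17.0 in BMFA3, and 19.8 and 18.3 in CT1BA5 libraries, a log2 change of -0.29 ± 0.091 (adjusted p = 0.00823). Here all sorted libraries were below parental, and BMFA3 and CT1BA5 libraries overlapped. By line, the edgeR test gave Eef2k an adjusted p of 0.0145 in BMFA3 and 0.0478 in CT1BA5. Both calls were lost at adjusted p 0.01, with glmTreat, and once libraries were blocked by replicate. The BMFA3 call was also lost without BMFA3 replicate 2. That in CT1BA5 did not hold with DESeq2, without a count filter, or in a fit of the compared groups only. Nor did it hold when TMM left out ribosomal protein, mitochondrial and member genes. It was also lost without any single parental or CT1BA5 library, and without BMFA3 replicate 1. The ratio of Eef2 to Eef2k counts was 110, 113 and 107 in parental, 180 and 204 in BMFA3, and 211 and 227 in CT1BA5 libraries. An exact permutation test of its log2 value, 3 parental against 4 sorted libraries, gave p = 0.0571 (two-sided), the smallest p that 35 regroupings allow, and 0.114 after Benjamini-Hochberg adjustment over 8 ratios.

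Eif5a, whose hypusine-bearing product helps ribosomes past slow peptide bonds, rose in both BMFA3 and CT1BA5 cells. It was at 654, 637 and 610 CPM in parental, 821 and 827 in BMFA3, and 1120 and 1257 in CT1BA5 libraries (log2 fold change 0.64 ± 0.057, adjusted p = 5.25e-09). The groups were fully separate. Its paralog Eif5a2 was at 25.7, 26.3 and 24.6 CPM in parental, 18.8 and 20.0 in BMFA3, and 29.7 and 24.8 in CT1BA5 libraries. It fell in BMFA3 by 0.40 on the log2 scale (adjusted p = 0.00433, not called without BMFA3 replicate 1), whereas in CT1BA5 the log2 difference of 0.10 was not called and the libraries overlapped parental ones. The ratio of Eif5a to Eif5a2 was 24.2 to 25.4 in parental and 37.7 to 50.5 in sorted libraries (exact permutation p = 0.0571, adjusted 0.114).

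Genes for methylation of elongation factors were low, and 2 of 5 rose in sorted cells (40%, against 34.8% of all tested genes). Eef1akmt3, a lysine methyltransferase of eEF1A, had the largest fold of the set but few counts: 3, 8 and 1 counts in parental, 29 and 37 in BMFA3, and 52 and 44 in CT1BA5 libraries. All sorted libraries were above parental, with a log2 fold change of 3.26 ± 0.46 (adjusted p = 3.28e-06), and the gene shares 100 exonic bases with Mettl1 on the opposite strand. Eef1akmt4 was at 5.17 to 6.44 CPM in parental, 5.36 and 5.57 in BMFA3, and 13 and 11.7 in CT1BA5 libraries. Only CT1BA5 libraries lay above parental (log2 difference 1.04 ± 0.17 against parental; sorted against parental 0.45, adjusted p = 0.0116, lost with library size alone and without parental replicate 2). It overlaps Alg3. Eef1akmt1, Eef1akmt2 and Eef2kmt (an eEF2 methyltransferase) were not called in sorted against parental, with log2 differences of 0.15, 0.11 and 0.04.

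The factors eIF1 and eIF1A keep the scanning subunit open. Their group of 5 genes also holds Eif1ad, whose product is an eIF1A-domain protein. In sorted cells 4 of the 5 were not called and Eif1a fell by 0.24 on the log2 scale (adjusted p = 0.000417). That is 20% of the group called lower, against 34.8% of all tested genes. Eif1a was at 256 to 265 CPM in parental and 217 to 224 in sorted libraries. With library size alone 4 of the 5 were called lower and none higher (median -0.218). That scaling called 5964 of all 13784 tested genes lower, and their median was -0.149. In BMFA3 against parental 3 of the 5 were lower with either scaling, namely Eif1, Eif1a and Eif1ad. With TMM scaling that is 60%, against 29.9% of all tested genes. The call of Eif1a was lost without BMFA3 replicate 1. That of Eif1ad was lost without BMFA3 replicate 2 and at adjusted p 0.01. Eif1 was at 379, 313 and 329 CPM in parental, 277 and 281 in BMFA3, and 353 and 408 in CT1BA5 libraries. It fell in BMFA3 (log2 change -0.28, adjusted p = 0.00509, not called without BMFA3 replicate 1), while CT1BA5 libraries overlapped parental ones. Eif1ax and Eif1b had log2 differences of -0.01 and -0.12.

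Among the 6 genes for eIF2 and other carriers of initiator tRNA, 5 rose and none was called lower in sorted cells, with a median of 0.30. That is 83.3% higher, against 34.8% of all tested genes. In BMFA3 against parental 2 of the 6 were higher (33.3%, against 29.2%). Under library size scaling alone 4 rose and 1 fell in sorted cells. Eif2s1, the subunit that the stress kinases phosphorylate, was at 216, 207 and 211 CPM in parental, 199 and 204 in BMFA3, and 281 and 292 in CT1BA5 libraries. CT1BA5 libraries were above all others, and BMFA3 libraries were slightly below parental. The log2 difference was 0.44 ± 0.062 in CT1BA5 (adjusted p = 3.15e-06) and -0.07 ± 0.063 in BMFA3 (adjusted p = 0.359), and with library size alone the call in sorted against parental was lost. Eif2s2, the beta subunit, was at 198, 207 and 203 CPM in parental, 208 and 219 in BMFA3, and 279 and 297 in CT1BA5 libraries (log2 0.29, adjusted p = 8.84e-05), and was not called in BMFA3 (adjusted p = 0.346). The gamma subunit has an X-linked and a Y-linked gene. Eif2s3y rose from 16.6, 17.5 and 21.6 CPM in parental to 24.9 and 25.4 in BMFA3, and 27.0 and 34.0 in CT1BA5 libraries (log2 0.56 ± 0.11, adjusted p = 0.000129). Its groups did not overlap, while Eif2s3x (136 to 145 CPM in parental, 124 to 150 in sorted libraries) overlapped and was not called (log2 -0.06, adjusted p = 0.418). Their transcripts are alike, and the way multiply mapped reads were counted is not given in the sources used here. Eif2a, which can bring initiator tRNA without eIF2, rose in both BMFA3 and CT1BA5 cells (sorted log2 fold change 0.54, adjusted p = 7.25e-08). Eif2d, with a similar activity, rose in CT1BA5 alone by the call (0.70, adjusted p = 4.76e-08, with -0.06 in BMFA3).

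eIF2B, the exchange factor that reloads eIF2 with GTP, had 4 of its 5 subunit genes higher in sorted cells, and all 5 in CT1BA5 (median 0.57). These are 80% and 100%, against 34.8% and 35.5% of all tested genes. In BMFA3 only Eif2b5, the catalytic subunit, was called (log2 0.18, adjusted p = 0.0265). Eif2b5 had 64.0, 63.9 and 60.9 CPM in parental, 72.0 and 70.7 in BMFA3, and 90.9 and 96.1 in CT1BA5 libraries, with no overlap. With library size alone 3 of the 5 were called higher in CT1BA5, and Eif2b5 lost its call in BMFA3, as it did without parental replicate 3 or either BMFA3 replicate. Eif2b2 stood apart between BMFA3 and CT1BA5 cells, with 64.3, 63.9 and 60.8 CPM in parental, 58.1 in both BMFA3 libraries, and 104 and 114 in CT1BA5 libraries.

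The 4 eIF2 kinases did not move together. Eif2ak2 (PKR, the sensor of double-stranded RNA, itself an interferon-induced gene, chr17:78852564-78882573) had the largest fall of the set in sorted and CT1BA5 cells. In BMFA3 the largest fall was that of Eif3b (-0.59). Eif2ak2 was at 90.7, 90.3 and 99.7 CPM in parental, 73.8 and 71.6 in BMFA3, and 47.6 and 37.8 in CT1BA5 libraries. The groups were separate, CT1BA5 lowest, and the log2 change was -0.75 ± 0.070 (adjusted p = 1.03e-08), -0.37 in BMFA3 and -1.13 in CT1BA5. Its window, printed above, holds the spaced pair of GAAA after the start. Eif2ak4 (GCN2, the sensor of uncharged tRNA) was at 24.1, 27.7 and 21.8 CPM in parental, 19.7 and 17.6 in BMFA3, and 16.8 and 16.4 in CT1BA5 libraries. All sorted libraries were lower, by -0.47 ± 0.10 on the log2 scale (adjusted p = 0.00035). Eif2ak1 (HRI, the haem-regulated kinase) was at 46.8 to 52.8 CPM in parental and 51.0 to 56.9 in sorted libraries, overlapping, and its small rise (0.17, adjusted p = 0.033) was lost with library size alone, with DESeq2, at adjusted p 0.01 and without parental replicate 1, parental replicate 3, either BMFA3 replicate or CT1BA5 replicate 2. It shares 487 exonic bases with Aimp2. Eif2ak3 (PERK, the endoplasmic reticulum sensor) spanned 29.1 to 41.7 CPM in parental and 31.2 to 38.6 in sorted libraries and was not called (log2 -0.02, adjusted p = 0.846). The log2 ratio of Eif2s1 to Eif2ak3 overlapped between groups (exact permutation p = 0.4, adjusted 0.457).

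**Figure D3:**
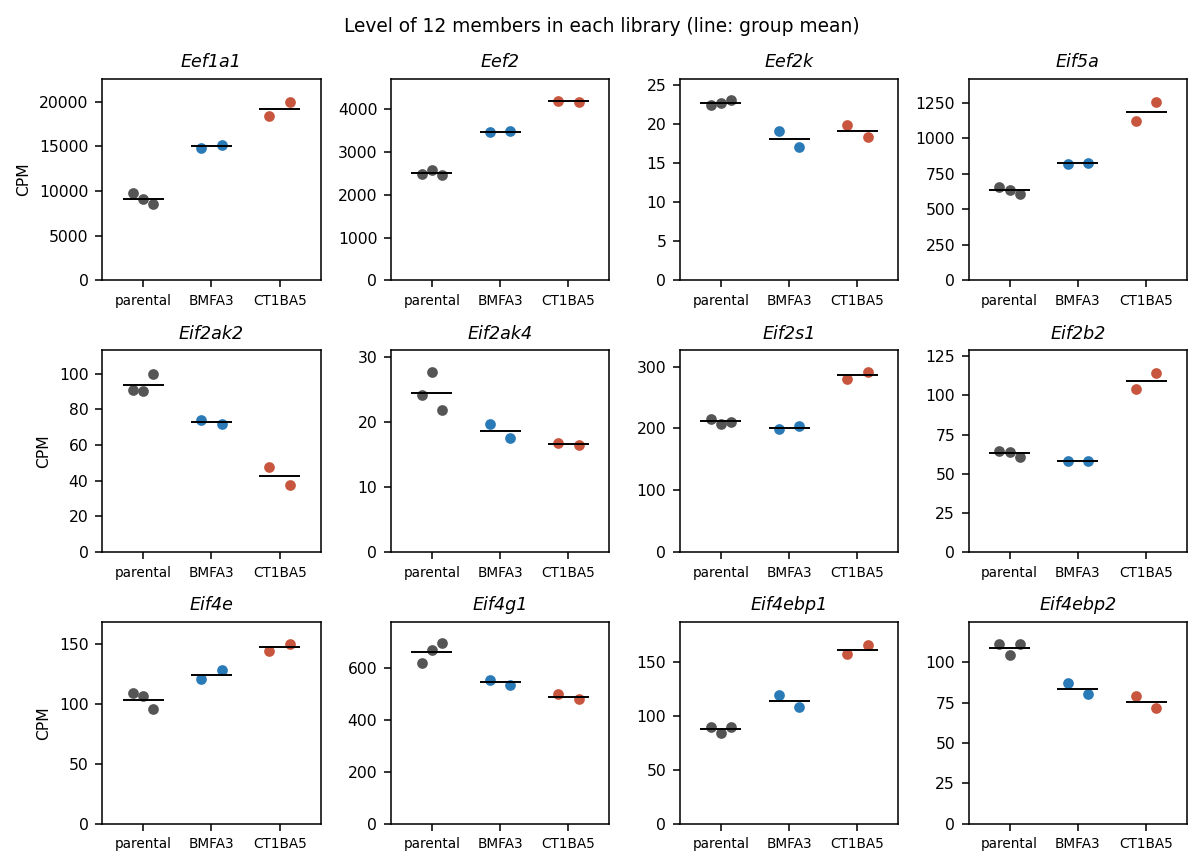
Level (CPM, vertical axes from 0) of 12 members in each library; each point is 1 library and each line a group mean. Eef1a1, Eef2, Eif5a, Eif4e and Eif4ebp1 step up from parental to BMFA3 to CT1BA5, Eif2ak2 steps down from 90.3 to 99.7 to 37.8 and 47.6, and Eif2s1 and Eif2b2 are high in CT1BA5 alone.

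eIF3, the large complex that holds the small subunit open for mRNA, showed rises and falls among its own subunits. Of its 14 genes 10 rose and 3 fell in sorted cells (9 and 3 with library size alone), with a median of 0.39. The 10 and 3 are 71.4% and 21.4%, against 34.8% of all tested genes each way. Eif3f had 228, 245 and 232 CPM in parental, 374 and 365 in BMFA3, and 488 and 542 in CT1BA5 libraries (log2 fold change 0.89 ± 0.056, adjusted p = 2.53e-11). The groups did not overlap. Eif3k, a peripheral subunit, had 136, 136 and 126 CPM in parental, 201 and 203 in BMFA3, and 269 and 322 in CT1BA5 libraries (0.88 ± 0.065, adjusted p = 3.16e-10). It followed the same order. Eif3e, a subunit next to Eif3d in the complex, was at 251, 219 and 210 CPM in parental, 279 and 275 in BMFA3, and 349 and 380 in CT1BA5 libraries (0.49 ± 0.063). Eif3i, Eif3m, Eif3l, Eif3h and Eif3g also rose, with log2 changes of 0.60, 0.58, 0.43, 0.41 and 0.37, and Eif3g was not called in BMFA3 (adjusted p = 0.181). The BMFA3 calls of Eif3h and Eif3l were lost with library size alone, with the replicate number as a block and without BMFA3 replicate 2. That of Eif3h was also lost without BMFA3 replicate 1, parental replicate 2 or parental replicate 3. Eif3d was called in sorted cells (0.21, adjusted p = 0.00407), a call lost with library size alone, and had a log2 difference of 0.00 in BMFA3. Eif3c, one of the core subunits, was higher in BMFA3 (356 and 357 CPM) than in CT1BA5 (313 and 305), both above 265 to 274 in parental cells; with library size alone its CT1BA5 difference turned to -0.042.

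Eif3a, Eif3b and Eif3j1 were the eIF3 genes called lower. Eif3a, the largest scaffold subunit, was at 343, 331 and 347 CPM in parental, 288 and 275 in BMFA3, and 246 and 243 in CT1BA5 libraries (log2 change -0.38 ± 0.051, adjusted p = 2.14e-06). Eif3b, the core subunit to which eIF3g and eIF3i attach, was at 495, 554 and 516 CPM in parental, 348 and 345 in BMFA3, and 366 and 383 in CT1BA5 libraries (-0.54 ± 0.054, adjusted p = 2.88e-08). Neither gene had a sorted library within the parental range. Eif3j1, a loosely bound factor, fell in BMFA3 (49.9 and 53.6 CPM against 68.4 to 78.4 in parental; log2 -0.48, adjusted p = 7.57e-05) and overlapped parental in CT1BA5 libraries (72.7 and 60.7 CPM). It shares 1107 exonic bases with Spg11. Its paralog Eif3j2 had at most 3.96 CPM and was not called. Within libraries the ratio of Eif3f to Eif3a counts, chosen after the values were seen, was 0.666, 0.74 and 0.669 in parental, 1.3 and 1.33 in BMFA3, and 1.99 and 2.23 in CT1BA5 cells. That ratio does not depend on the scaling between libraries.

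**Figure D4:**
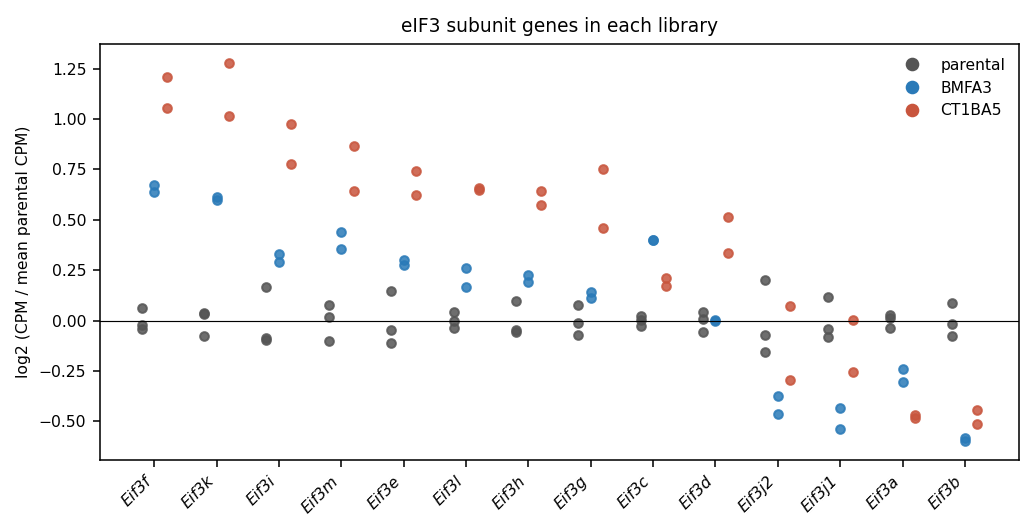
Log2 ratio of the CPM of each eIF3 gene in each library to its mean parental CPM (vertical axis); each point is 1 library, grey parental, blue BMFA3, red CT1BA5, and genes are ordered by their change in sorted cells. Points of Eif3f and Eif3k lie above parental and those of Eif3a and Eif3b below in all 4 sorted libraries.

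Of the 10 tested eIF4F genes 7 rose and 2 fell in sorted cells, with a median of 0.27 (5 and 3 with library size alone). The 7 and 2 are 70% and 20%, against 34.8% of all tested genes each way. Eif4e, which binds the cap, was at 109, 106 and 95.6 CPM in parental, 120 and 128 in BMFA3, and 144 and 150 in CT1BA5 libraries (log2 fold change 0.39 ± 0.062, adjusted p = 1.62e-05). All sorted libraries were higher. Eif4e2, a cap-binding homologue that acts mainly as a repressor, was at 91.1, 94.9 and 92.1 CPM in parental, 118 and 128 in BMFA3, and 175 and 188 in CT1BA5 libraries (0.69 ± 0.060, adjusted p = 3.58e-09). Eif4e3 rose from very low levels, 0.218 to 0.920 CPM in parental to 1.04 to 2.33 CPM in sorted libraries (1.88 ± 0.44, adjusted p = 0.000912). Eif4e1b, the form of oocytes, had 0 counts in all libraries, which allows at most 0.147 to 0.276 CPM per library. Eif4a1, the main helicase, was at 675, 663 and 663 CPM in parental, 884 in both BMFA3, and 1015 and 1108 in CT1BA5 libraries (0.54 ± 0.054, adjusted p = 3.11e-08). Eif4a2, its close homologue, rose by 0.30 (adjusted p = 6.39e-05) and did not differ by the call between CT1BA5 and BMFA3 cells (log2 0.02 ± 0.072, adjusted p = 0.854). The ratio of Eif4a1 to Eif4a2 was 2.21 to 2.34 in parental, 2.48 and 2.43 in BMFA3, and 2.94 and 2.88 in CT1BA5 libraries (exact permutation p = 0.0571, adjusted 0.114). A processed pseudogene of the eIF4A family had up to 360 counts, so reads may be split between copies. Of the helicase cofactors, Eif4h rose by 0.23 in sorted cells (adjusted p = 0.000437), a call that was lost with library size alone, and was not called in BMFA3 (0.05, adjusted p = 0.452). Eif4b was called at 0.12 (adjusted p = 0.0443), but its libraries overlapped and the value turned to -0.035 with library size alone. Its call was also lost without parental replicate 2 or 3 or either BMFA3 replicate.

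Of the 3 scaffold genes, Eif4g1 and Eif4g3 fell in sorted cells and Eif4g2 was not called. Eif4g1 (chr16:20668313-20692884) was at 620, 671 and 696 CPM in parental, 556 and 537 in BMFA3, and 501 and 479 in CT1BA5 libraries (log2 change -0.36 ± 0.055, adjusted p = 9.45e-06). All sorted libraries were lower. Eif4g3 was at 82.3, 83.6 and 94.8 CPM in parental, 81.3 and 80.6 in BMFA3, and 67.5 and 57.5 in CT1BA5 libraries (-0.29 ± 0.067, adjusted p = 0.000735), and in BMFA3 its log2 difference of -0.11 was not called. Eif4g2, which lacks the eIF4E site and serves cap-independent initiation, was at 1087 to 1151 CPM in parental and 1002 to 1065 in sorted libraries and was not called (-0.10, adjusted p = 0.109). The ratio of Eif4g1 to Eif4g3 overlapped between groups (exact permutation p = 0.571).

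Of the inhibitors of eIF4E, Eif4ebp1 and Eif4ebp2 moved in opposite directions. Eif4ebp1 was at 89.1, 83.9 and 89.2 CPM in parental, 120 and 108 in BMFA3, and 157 and 166 in CT1BA5 libraries (log2 fold change 0.63 ± 0.061, adjusted p = 1.57e-08). Eif4ebp2 was at 112, 104 and 111 CPM in parental, 87.1 and 80.2 in BMFA3, and 78.9 and 71.3 in CT1BA5 libraries (-0.46 ± 0.060, adjusted p = 1.09e-06). For both genes all 4 sorted libraries lay outside the parental range. Their ratio was 0.799, 0.805 and 0.8 in parental, 1.37 and 1.35 in BMFA3, and 1.99 and 2.32 in CT1BA5 libraries, a log2 difference of 1.09 between sorted and parental means (exact permutation p = 0.0571, adjusted 0.114). These ratios of counts are not corrected for length; per kilobase of merged exon, Eif4ebp1 was above Eif4ebp2 in every group, at 39.8 against 18.9 CPM in parental and 73.4 against 13.0 in CT1BA5 cells. Eif4e relative to Eif4ebp1 overlapped between groups (log2 difference -0.24, exact permutation p = 0.114, adjusted 0.152). Eif4enif1, which carries eIF4E to the nucleus and to processing bodies, fell by -0.36 on the log2 scale (adjusted p = 5.38e-05), with 65.9 to 76.5 CPM in parental, 61.7 and 61.6 in BMFA3, and 47.9 and 46.6 in CT1BA5 libraries. Eif4ebp3 had at most 2 counts and was not tested.

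**Figure D5:**
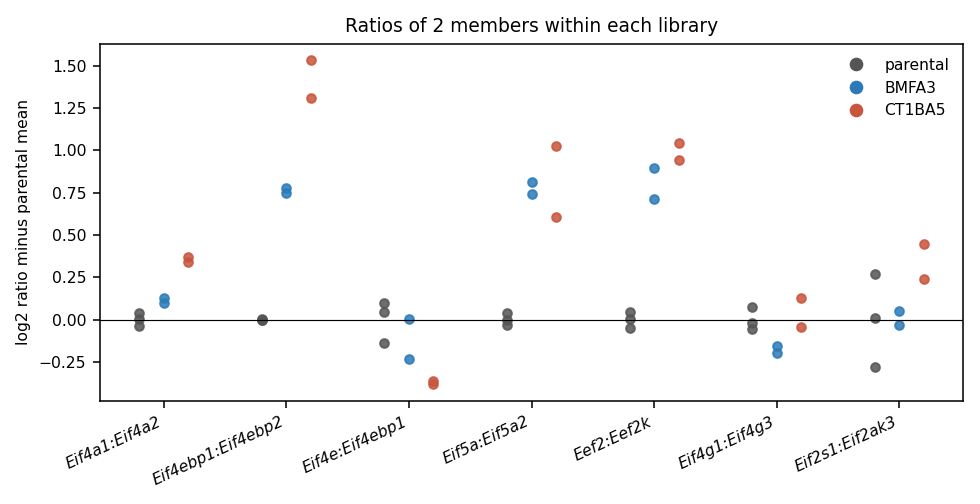
Log2 ratio of 2 members within each library minus the parental mean of that ratio (vertical axis); each point is 1 library. Eif4ebp1 to Eif4ebp2, Eif5a to Eif5a2, Eef2 to Eef2k and Eif4a1 to Eif4a2 lie above the parental points in all 4 sorted libraries, and the other 3 ratios overlap them.

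Of the 3 factors of subunit joining, Eif6 was called higher and Eif5 lower in sorted cells, by log2 differences of 0.19 and -0.17 (adjusted p = 0.00713 and 0.00657). The call of Eif6 was lost with library size alone and without parental replicate 3. Eif5, which triggers GTP hydrolysis on eIF2, was at 339, 312 and 318 CPM in parental, 255 and 253 in BMFA3, and 329 and 317 in CT1BA5 libraries. It fell in BMFA3 (log2 -0.35, adjusted p = 0.000103), and CT1BA5 libraries lay within the parental range. Eif5b was not called (log2 0.03, adjusted p = 0.717). Eif6, which keeps large subunits from joining early, was at 148, 150 and 143 CPM in parental, 137 and 134 in BMFA3, and 197 and 216 in CT1BA5 libraries. It rose in CT1BA5 (0.49, adjusted p = 2.35e-06) and had a log2 difference of -0.12 in BMFA3 (adjusted p = 0.158). Eif4a3, the helicase of the exon junction complex, rose by 0.28 in sorted cells (adjusted p = 0.000587; 0.121 and not called with library size alone), with 0.49 in CT1BA5 and 0.06, not called, in BMFA3.

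The PanMeso cells sorted from CT1BA5 and from BMFA3 tumours were compared directly. In CT1BA5 against BMFA3 cells 39 members were higher, 7 lower and 19 not called (70.8% called, against 50.8% of all tested genes; 60% higher, against 25.5%; 10.8% lower, against 25.3%). The groups did not overlap for 58 members (background 74.5%). The median log2 difference was 0.36, against -0.01 over all genes. Library size scaling alone gave 32 higher and 12 lower, with medians of 0.202 for members and -0.163 for all genes. It called 2371 of all 13784 tested genes higher and 4740 lower. Without BMFA3 replicate 1 or without BMFA3 replicate 2 the lower members were 4. All 5 tested eEF1 genes and all 5 eIF2B genes were higher in CT1BA5, as were 10 of the 14 eIF3 genes; with library size alone these were 5, 3 and 9. The largest differences were Eef1akmt4 (log2 1.18 ± 0.19, adjusted p = 2.74e-05), Eif2b2 (0.91 ± 0.076, adjusted p = 7.15e-09), Eef1e1 (0.86 ± 0.11, adjusted p = 1.39e-06) and Eif2d (0.76 ± 0.081, adjusted p = 2.07e-07). These 4 were also the only members past a test against a 1.5-fold difference (glmTreat). Lower in CT1BA5 were Eif2ak2 (-0.76), Eef2kmt (-0.40), Eif4enif1 (-0.38), Eif4g3 (-0.37), Eif3c (-0.21), Eif3a (-0.20) and Eif4b (-0.20). Eif3c and Eif4b lost their calls without either BMFA3 replicate, Eif3a without BMFA3 replicate 1, and Eef2kmt without BMFA3 replicate 2 or CT1BA5 replicate 1. Eif1ad, an eIF1A-domain protein, was called lower in BMFA3 and higher in CT1BA5 against parental cells. Between the CT1BA5 libraries, replicate 2 was above replicate 1 in 42 of the 65 tested members, and in 34 of the 40 called higher against parental cells.

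Genes around these factors were described from lists of the pathway. Of 9 genes for poly(A) binding, 4 rose and 2 fell in sorted cells (median -0.09). These are 44.4% higher and 22.2% lower, against 34.8% of all tested genes in each direction. Pabpc1, the poly(A)-binding protein that contacts eIF4G, went from 1289, 1346 and 1277 CPM in parental to 1975 and 2028 in BMFA3, and 1876 and 1874 in CT1BA5 libraries (log2 0.57, adjusted p = 2.31e-09). Its regulators moved apart, with Paip2 at 0.36 and Paip2b at -0.54 (adjusted p = 1.06e-05 and 1.3e-07). Of 9 genes for hypusine and diphthamide, the modifications of eIF5A and eEF2, 4 rose and 2 fell (median 0.17), again 44.4% and 22.2% against 34.8% each. Dhps, which starts hypusine synthesis on eIF5A, had 18.0 to 18.5 CPM in parental, 28.9 and 28.5 in BMFA3, and 48.7 and 55.8 in CT1BA5 libraries (1.08 ± 0.084, adjusted p = 6.55e-10). All sorted libraries were above parental. The diphthamide genes Dph1 and Dph6 rose by 0.94 and 0.26 (adjusted p = 0.000161 and 0.0133).

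The signalling lists did not move one way. Of 21 genes of mTORC1 and eIF4 signalling, 10 rose and 9 fell (median -0.13), which is 47.6% and 42.9% against 34.8% of all tested genes each way. Ddit4, an inhibitor of mTORC1, rose by 0.79 (adjusted p = 2.36e-10). Sesn1, a sestrin that also restrains mTORC1, fell from 66.3 to 68.7 CPM in parental to 19.9 to 26.0 in sorted libraries (log2 -1.58, adjusted p = 6.33e-14). Mknk2, a kinase of eIF4E, fell by 0.91 on the log2 scale (adjusted p = 9.01e-11), from 165 to 172 CPM to 75.4 to 107. Of 20 genes of the eIF2 phosphatase and targets of the integrated stress response, 5 rose and 13 fell (median -0.23), which is 25% and 65% against 34.8% each way. Chac1 fell from 25.9 to 31.0 CPM in parental to 4.14 to 5.30 in sorted libraries (-2.52, adjusted p = 2.17e-13), and Psat1, of serine synthesis, fell by 1.53 (adjusted p = 4.73e-13). Cebpb, a transcription factor listed among the targets, rose by 1.55 (adjusted p = 7.38e-14). The median over all tested genes was 0.01 in the same comparison.

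Of 22 genes of the cytosolic aminoacyl-tRNA synthetases and their partners, 12 rose and 6 fell (median 0.16), which is 54.5% and 27.3% against 34.8% of all tested genes each way. Gars, the glycyl-tRNA synthetase, rose from 410, 415 and 431 CPM in parental to 553 and 557 in BMFA3, and 883 and 912 in CT1BA5 libraries (log2 0.75, adjusted p = 1.07e-10). Qars rose by 0.43 (adjusted p = 1.36e-06), and Lars, for leucine, fell by 0.46 (adjusted p = 3.78e-07). Of 10 genes of translation termination and recycling, 4 rose and 1 fell (median 0.11), which is 40% and 10% against 34.8% each way, led by Denr (0.58, adjusted p = 3.68e-07), Hbs1l (0.40) and Mcts1 (0.38). Of 10 mitochondrial translation factors, 2 rose (20%, against 34.8%) and 8 were not called (median -0.02). Those that rose were Tufm, the mitochondrial counterpart of eEF1A (0.79, adjusted p = 3.64e-10), and its exchange factor Tsfm (0.47, adjusted p = 0.000516), while Mtrf1l had a log2 difference of -0.28 (adjusted p = 0.0958). These lists were set up with earlier results of these data known, and their counts are a description.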

How the data were processed

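Per the labels, RNA came from an RNeasy Mini extraction and libraries from a standard Illumina protocol. The deposited table holds raw counts per Ensembl gene, made by the authors as whole numbers with a column for each of 7 libraries. CASAVA, DESeq2 1.24.0 and mm10 are named per the submitters' processing notes, with no role; no aligner, counter, annotation release or strand setting is named (not given in the sources used here). Of 54532 identifiers 54495 matched GENCODE M21 (GRCm38), so genes that overlap another gene may share reads.

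Genes were kept by edgeR's filterByExpr (minimum count 10), which left 13784 with 99.9% of the counts. Libraries held 10096839 to 19210598 counts and were scaled by TMM (factors 0.897 to 1.08). The test was edgeR 4.0.16 (R 4.3.3) glmQLFTest on all 7 libraries with group as the only term, with Benjamini-Hochberg adjustment over all tested genes and a threshold of 0.05. The fit was tested on simulated data. Members are accounted for in full; those named were the fixed members of each complex, the 8 highest and 8 lowest calls per comparison at 1 CPM or more, the 2 with the smallest p per role and the 3 per pathway list. The rule for the members uses symbols only, but this gene set and the lists were chosen with earlier results of these data known. Within-library log2 ratios used counts plus 0.5 and exact two-sided permutation tests, adjusted over 8 ratios; that of Eef1a1 to Eef1a2 is not reported, since Eef1a2 had at most 6 counts. Alternatives were other scalings and filters, DESeq2 1.42.0, limma-voom 3.58.1, a stricter threshold, glmTreat at 1.5-fold, the replicate number as a block, and leaving out each library. Levels per length used merged exons. Floors cover counting error only, since no molecular identifiers are mentioned.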

Additional observations from a re-analysis of the deposited data

Results flagged for a closer look

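Eif1ad, which encodes an eIF1A-domain protein, differed from parental cells in opposite directions in BMFA3 and CT1BA5 cells. Its level was 31.6, 31.2 and 30.8 CPM in parental, 26.1 and 24.6 in BMFA3, and 36.5 and 41.0 in CT1BA5 libraries. The log2 change was -0.29 ± 0.096 in BMFA3 and 0.31 ± 0.092 in CT1BA5, and the test of the difference itself, CT1BA5 against BMFA3, gave 0.609 (edgeR quasi-likelihood test, adjusted p = 5.8e-05). All 3 groups were separate. The gene shares 428 exonic bases with Banf1 on the opposite strand, which stood at 60.8 CPM in parental, 62.9 in BMFA3 and 105 in CT1BA5 cells; its part in the result was not tested. The call in CT1BA5 against parental was lost with library size scaling alone and without CT1BA5 replicate 2, and that in BMFA3 without BMFA3 replicate 2.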

How the results depend on the processing

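The alternatives gave 3479 values of single members. They cover only the members named by the rules above, many chosen for a large fold or small p, not all 65 tested. Of the values, 3220 kept their call or lack of one, 221 lost the call, 34 gained one and 4 reversed. A change of sign without a call in either fit was counted as kept. Eif4a3 in BMFA3 against parental is a case, at 0.063 and, with library size alone, -0.015. The reversals came with library size alone: Eif4b (-0.035 in sorted and -0.212 in CT1BA5 against parental), Eif5 (-0.235) and Eif3c (-0.042) in CT1BA5. That scaling also gave 19 lower members in CT1BA5 against parental and 12 in CT1BA5 against BMFA3. Of all 13784 tested genes it called 6280 and 4740 lower in these comparisons. At adjusted p 0.01 the lower members in CT1BA5 against BMFA3 were 3, and without BMFA3 replicate 1 or 2 they were 4. With glmTreat at 1.5-fold, members called higher and lower were 8 and 1 in sorted, 2 and 0 in BMFA3, and 16 and 1 in CT1BA5 against parental. In CT1BA5 against BMFA3 they were 4 and 0. The test without a fold minimum called 13 lower in BMFA3 against parental and 7 in CT1BA5 against BMFA3. The share of all tested genes called was not computed for glmTreat, the stricter threshold or the fits that left out a library. Leaving out each library moved the log2 ratio of Eif4a1 to Eif4a2 between 0.188 and 0.28, and that of Eif4ebp1 to Eif4ebp2 between 0.945 and 1.206. Without ribosomal protein and mitochondrial genes in the total, the members' mean share was 2.63% in parental, 3.43% in BMFA3 and 3.94% in CT1BA5 cells. The cause of these shifts was not tested.

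Deviations of same-numbered libraries from their group means correlated by -0.101 to 0.0769. In a group of 2 libraries these deviations mirror each other, so the values cannot tell whether the numbers pair samples. With the replicate number as a block, 46 members were called in sorted, 30 in BMFA3 and 47 in CT1BA5 against parental. In CT1BA5 against BMFA3 42 were called, with 4 of these lower. The main fit called 51, 38, 50 and 46 members in these comparisons. The share of all tested genes called was not computed with the block, so these counts show only how many member calls held. Eif3d and Eif6 were among the sorted calls lost. With 2 libraries per sorted group the spread is poorly known, and Eef1akmt3 and Eif4e3 rest on few counts. Gene lengths from the principal transcript, an alternative chosen after seeing the data, left Eef1a1 at rank 1 of the members per length and moved Eef2 from rank 2 to 3, behind Eif4g2, whose principal transcript is given as 742 bases against 10166 of merged exon.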
